A study of Homo sapiens with 12 samples.

Results

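MHC class I presentation genes were followed in 2 neuroblastoma cell lines, with and without Erastin. The 9 members were the class I heavy chain genes HLA-B, HLA-C, HLA-E and HLA-F, the light chain gene B2M, the peptide transporter genes TAP1 and TAP2, the tapasin gene TAPBP and the transactivator gene NLRC5. They were chosen by name among 58735 rows of gene counts, and each name had 1 row. KELLY, a MYCN-amplified line, received DMSO or 1 µM Erastin. SK-N-AS, a line without MYCN amplification, received DMSO or 2 µM Erastin. All cells were collected after 24 h, with 3 libraries in each of the 4 groups. Erastin inhibits the cystine-glutamate antiporter and was given at a different dose to each line, so dose and line cannot be told apart when the lines' responses are compared. Each MYCN state is represented by 1 established line, so MYCN amplification and every other difference between KELLY and SK-N-AS cannot be told apart.

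MHC class I molecules carry peptides from inside the cell to its surface, where CD8+ T cells read them and where natural killer cells sense their absence. Peptides are cut by the proteasome, pumped into the endoplasmic reticulum by the TAP1 and TAP2 heterodimer, and loaded with the help of tapasin onto a heavy chain bound to B2M. HLA-B and HLA-C are classical heavy chains, while HLA-E and HLA-F are non-classical ones with few alleles. NLRC5 drives transcription of the class I heavy chain genes, B2M and TAP1, and interferon induces most of the pathway. Neuroblastoma is known for low class I expression.

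Most members lie in the major histocompatibility complex. On GRCh38, the heavy chain genes are HLA-B (chr6:31353872-31367067, minus strand), HLA-C (chr6:31268749-31272130, minus strand), HLA-E (chr6:30489509-30494194, plus strand) and HLA-F (chr6:29722775-29738528, plus strand). The genes TAP1 (chr6:32845209-32853816, minus strand), TAP2 (chr6:32821833-32838739, minus strand) and TAPBP (chr6:33299694-33314284, minus strand) are on the same chromosome, while B2M (chr15:44711358-44718851, plus strand) and NLRC5 (chr16:56989485-57083531, plus strand) lie elsewhere. Counts cover each gene as a whole, without a split into exons or transcripts.

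Promoter stretches of 6 members are shown, with letters of the kind that interferon regulatory factors are known to bind, because these genes are textbook interferon targets. RefSeq promoter entries on GRCh38.p14 matched 7 of the 9 members. HLA-E and NLRC5 had none in the table used here. Each entry was searched, on either strand, over the 250 bases before the start that RefSeq gives it, which can lie inside the longer gene span given above. The letters searched were 2 spaced pairs of interferon-type letters (GAAA then GAAA, and GAA then GAAA, each with any 2 bases between), CCAAT and TGACG, a cAMP response element core. The spaced pairs can overlap each other. The stretches below are printed 5′ to 3′ on the gene's strand, with matches in capitals, and those of HLA-B, HLA-C, TAP1 and TAP2 lie outside the annotated exons of their genes. For B2M and TAPBP only a short stretch around the interferon-type letters is given. They are reference sequence and not the alleles of these lines.
HLA-B (chr6:31357294-31357379, minus strand): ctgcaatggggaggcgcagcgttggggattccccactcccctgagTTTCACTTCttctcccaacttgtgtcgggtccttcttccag
HLA-C (chr6:31272131-31272292, minus strand): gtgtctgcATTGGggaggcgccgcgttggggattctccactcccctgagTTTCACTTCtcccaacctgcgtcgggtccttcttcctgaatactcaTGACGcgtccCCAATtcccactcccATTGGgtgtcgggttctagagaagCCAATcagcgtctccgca
B2M (chr15:44711366-44711395, plus strand): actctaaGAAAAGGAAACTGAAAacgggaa
TAP1 (chr6:32853817-32853904, minus strand): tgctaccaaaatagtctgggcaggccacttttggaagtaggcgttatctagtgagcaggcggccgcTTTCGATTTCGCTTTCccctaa
TAP2 (chr6:32838740-32838939, minus strand): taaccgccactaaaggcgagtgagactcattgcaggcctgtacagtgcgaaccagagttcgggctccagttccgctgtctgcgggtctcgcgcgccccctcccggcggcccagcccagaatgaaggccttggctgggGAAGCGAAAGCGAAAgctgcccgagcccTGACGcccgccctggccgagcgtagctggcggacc
TAPBP (chr6:33314079-33314105, minus strand): tttggagGAAAGTGAAAGTGAAAggag

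Interferon-type letters of either form were in a promoter entry of 7 of the 7 matched members and in 9.08% of 35116 promoter entries of the same length. HLA-B and HLA-C carried only the pair that starts with GAA, which 6.56% of all promoters held. HLA-F, B2M, TAP1 and TAPBP carried the pair that starts with GAAA, held by 3.02%, and TAP2 carried both. CCAAT was in a promoter entry of 5 members against 32% of all entries, and TGACG in 4 against 21.2%. A match is a description of these letters, and TAP1 had a second entry with no match.

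The libraries held between 24169796 and 29835670 gene counts, and 0 of 66 library pairs had identical values. MYCN, which marks the lines, had 130503 to 145326 counts in the KELLY DMSO libraries and 7 to 11 in those of SK-N-AS. SLC7A11, the transporter chain that Erastin targets, was higher in every Erastin library than in every DMSO library of its line. Its log2 difference was 2.12 in KELLY (adjusted p = 0.410) and 2.01 in SK-N-AS (adjusted p = 1.55e-06). Within a group, libraries were tilted to different degrees towards GC-rich or GC-poor transcripts. Spearman's rho between a library's log2 ratio and transcript GC was between -0.77 and 0.83 for KELLY libraries and between -0.66 and 0.69 for those of SK-N-AS. Results were therefore given with and without a correction for that trend. Nothing in the labels ties the 3 libraries of a group to separate passages or days, so p-values measure the spread between these libraries, which may be technical.

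Between the DMSO-treated lines, class I presentation genes were far higher in SK-N-AS. HLA-E and TAP1, abundant in SK-N-AS, were at or near 0 in KELLY, HLA-B and TAP2 were more than 16-fold lower there, and the other tested members were lower by 3.92-fold (B2M) to 9.76-fold (TAPBP). Levels below are CPM, the share of a library's counts that fell on a gene, scaled over all 12 libraries, and differences are log2 values with their standard error from edgeR's quasi-likelihood test. HLA-B, HLA-E and TAP1 passed the low-count filter only through SK-N-AS and so had to be higher there. Their adjusted p and lack of overlap, given below, are therefore no support, and their counts are printed beside them. In a bulk sample, fewer cells with a transcript and less transcript per cell cannot be told apart.

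Of the classical heavy chains, HLA-B had 14.4, 13.2 and 9.89 CPM in the SK-N-AS DMSO libraries and 0.0389, 0.406 and 0.07 CPM in those of KELLY. The KELLY values rest on 1, 10 and 2 counts, and the ratio of the summed counts, scaled for depth, was 75.9 with a counting interval of 44.2 to 143. The groups did not overlap, and the log2 difference was 6.18 ± 0.51 (SE, n = 3 and 3, adjusted p = 1.07e-05). Without KELLY DMSO replicate 2, which held most of the KELLY counts, it was 7.69, and without replicate 1 it was 5.73.

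HLA-C had 25.7, 29.7 and 22.7 CPM in SK-N-AS and 3.42, 8.17 and 4.55 CPM in KELLY. The groups did not overlap. The log2 difference was 2.26 ± 0.31 (adjusted p = 0.000232). The summed level of the 4 heavy chains was 62.7 ± 8.63 CPM (SD, n = 3) in SK-N-AS DMSO and 5.59 ± 2.72 CPM in KELLY DMSO, and HLA-C made up nearly all of the latter.

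HLA-E, the heavy chain that natural killer cells read through an inhibitory receptor, had 24.3, 27.5 and 20.7 CPM in SK-N-AS. The KELLY DMSO libraries held 0, 2 and 0 counts, and the KELLY Erastin libraries 4, 0 and 3. The ratio of summed DMSO counts was 950, with a counting interval of 263 to 7853 (adjusted p of the fitted difference = 5.12e-07). The fitted log2 difference of 9.63 moved to 12.3 without KELLY DMSO replicate 2, which held the line's 2 counts. HLA-F had 1 count in each SK-N-AS DMSO library and 0, 0 and 1 in KELLY, too few for a test or a fold.

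B2M, the invariant light chain, led the members in level per kilobase in either line. It had 428, 519 and 534 CPM in SK-N-AS and 139, 117 and 118 CPM in KELLY, with no overlap between the lines. The log2 difference of 1.97 ± 0.15 (adjusted p = 5.22e-06) was the smallest of the 8 tested members.

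TAP1 had 757, 589 and 549 counts in the SK-N-AS DMSO libraries, or 27.9, 23.4 and 20.6 CPM. In the 6 KELLY libraries, DMSO and Erastin alike, it had 0 counts. A count of 0 allows up to 3 counts, which is 0.105 to 0.123 CPM in those libraries, so TAP1 was at least 209-fold higher in SK-N-AS (3 counts per library, counting error only; adjusted p = 1.41e-06). Its partner TAP2 had 19.7, 21.4 and 19.9 CPM in SK-N-AS and 1.01, 0.528 and 0.56 CPM in KELLY. TAP2 counts in KELLY were 26, 13 and 16, and the log2 difference was 4.84 ± 0.27 (adjusted p = 9.53e-07).

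TAPBP encodes tapasin, which bridges the transporter and the empty heavy chain. It had 127, 115 and 111 CPM in SK-N-AS and 8.4, 14.7 and 12.7 CPM in KELLY, a log2 difference of 3.29 ± 0.22 (adjusted p = 2.9e-06). NLRC5 had 23.5, 20.2 and 18.3 CPM in SK-N-AS and 2.33, 3.13 and 2.55 CPM in KELLY. The groups of either gene did not overlap, and the log2 difference of NLRC5 was 2.94 ± 0.20 (adjusted p = 3.29e-06).

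**Figure D1:**
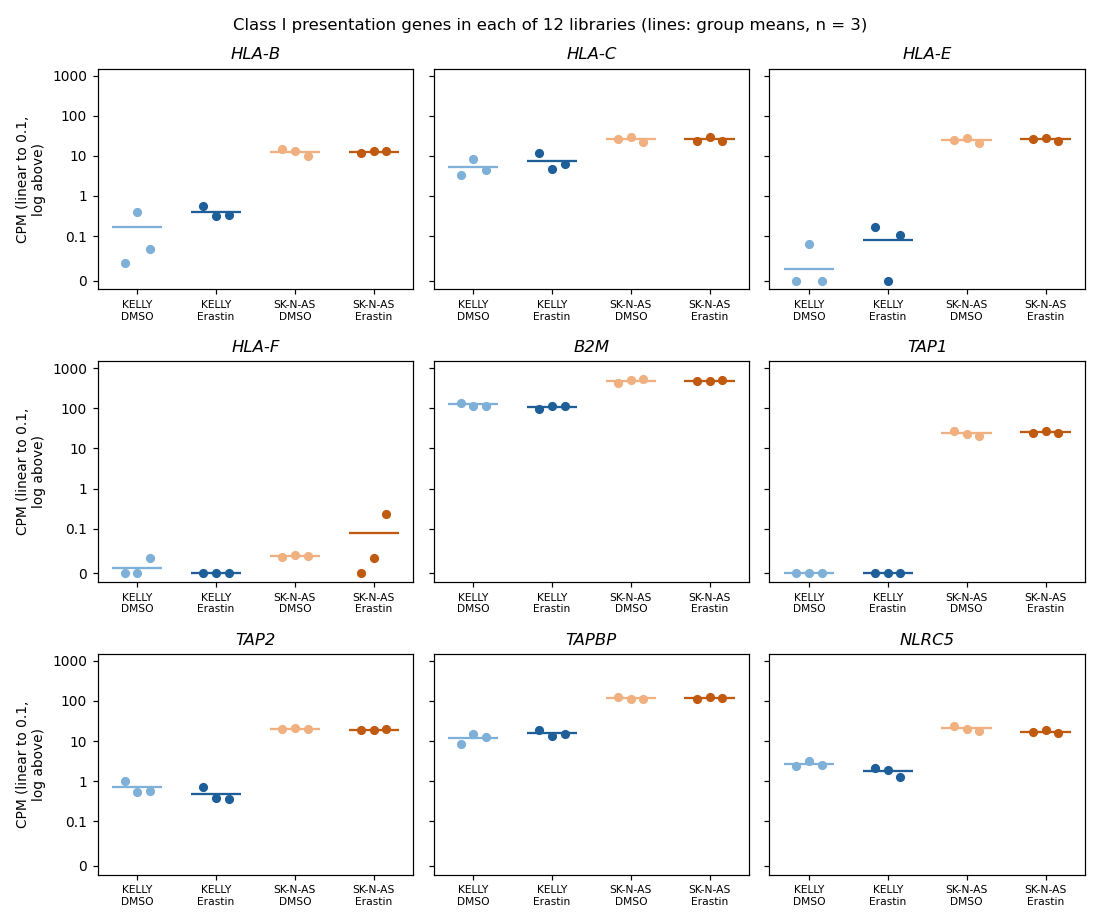
CPM of the 9 members in each library (y axis linear up to 0.1 and logarithmic above), with group means as lines, for 3 libraries in each of 4 groups. The SK-N-AS points lie above the KELLY points for all members except HLA-F, TAP1 sits at 0 in the 6 KELLY libraries, and the KELLY points of HLA-B run from 0.0389 to 0.575 CPM and those of HLA-C from 3.42 to 11.5 CPM.

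Counted over the table, 8 of the 8 tested members passed an adjusted p of 0.05 with SK-N-AS higher, while 30.3% of the 17089 genes tested did so and 61.3% passed in either direction. HLA-F was not tested. HLA-B, HLA-E and TAP1 passed the low-count filter only through SK-N-AS and so had to differ. A stricter filter, at least 10 counts in every library, left 5 members (B2M, HLA-C, TAP2, TAPBP and NLRC5), and 5 were called higher in SK-N-AS, with a median log2 difference of 2.93, against 28.3% of all genes in that fit. The counts and medians that follow include the 3 members that had to differ. A fold of at least 16 in favour of SK-N-AS was reached by HLA-B, HLA-E, TAP1 and TAP2 and by 5.94% of all genes tested. The groups of the 8 tested members did not overlap, with SK-N-AS higher, and this held for 33.5% of all genes. The median log2 difference of the tested members was 4.06 (4.06 also with TAP1 at its bound), against -0.02 over all genes. With the GC trend removed, the 8 members passed again, as did 74.4% of all genes, and their median was 4.02.

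**Figure D2:**
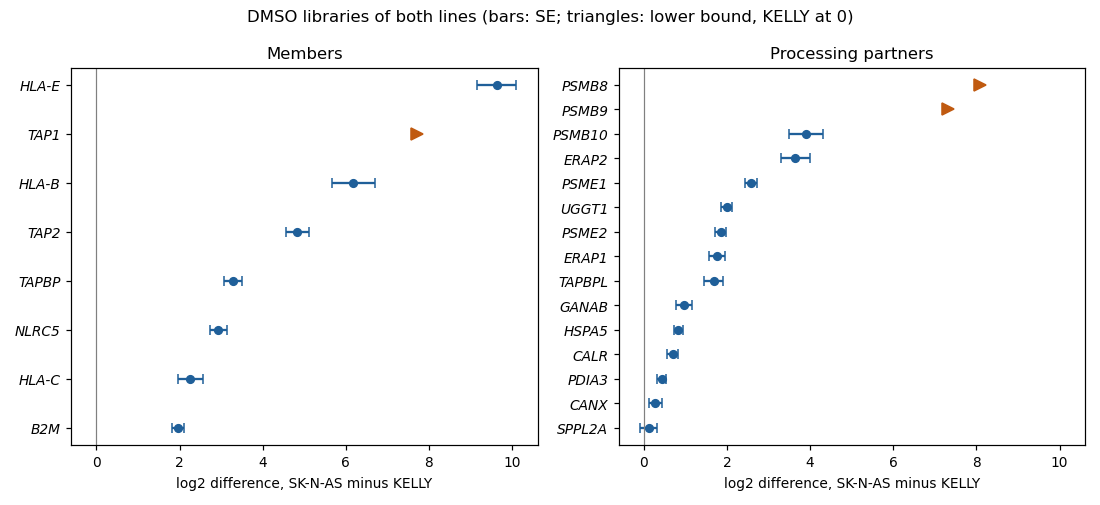
log2 difference between the DMSO libraries of SK-N-AS and KELLY (x axis, positive where SK-N-AS was higher) for the tested members and for 15 antigen processing partners. Points are fitted values with their SE, and triangles are lower bounds for TAP1, PSMB8 and PSMB9, which had 0 counts in KELLY. B2M is lowest at 1.97, and the value of HLA-E, 9.63, rests on 2 KELLY counts.

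The order of levels, per kilobase of transcript, differed between the lines. In KELLY DMSO, B2M led at 132 ± 13.6 CPM per kb (SD, n = 3), followed by HLA-C at 3.49 ± 1.61 and TAPBP at 3.46 ± 0.935, whose libraries overlapped. NLRC5 came next at 0.394 ± 0.0606 CPM per kb, and TAP2, HLA-B, HLA-E and HLA-F followed, each overlapping its neighbour. In SK-N-AS DMSO, B2M stood at 523 ± 60.9, TAPBP at 34.1 ± 2.45 and HLA-C at 16.9 ± 2.25 CPM per kb, without overlap between neighbours. HLA-E at 9.48, TAP1 at 8.93 and HLA-B at 8.14 CPM per kb overlapped, and TAP2 at 3.60, NLRC5 at 3.05 and HLA-F at 0.0257 closed the order.

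Antigen processing partners, which include proteasome subunits, chaperones and genes of glycoprotein quality control, followed the members in part. Of 15 antigen processing partners, 13 were higher in SK-N-AS, 0 were lower, and the median log2 difference was 1.75. PSMB8, PSMB9 and PSMB10 passed the low-count filter only through SK-N-AS and so had to be higher there. Of the 11 with at least 10 counts in every library, 9 were higher, with a median of 0.97. Over all genes, 30.3% were called higher, or 28.3% under that stricter filter. PSMB8 and PSMB9, catalytic subunits of the immunoproteasome, had 0 counts in every KELLY library. They were at least 273-fold and 160-fold higher in SK-N-AS, where PSMB8 had 712 to 885 counts with DMSO. PSME1, a subunit of the proteasome activator, was higher by 2.58 ± 0.14 and UGGT1, a glucosyltransferase of glycoprotein quality control, by 1.99 ± 0.13 (log2; adjusted p = 1.01e-06 and 2.47e-06). Of 14 constitutive proteasome subunits, 2 were higher and 3 lower in SK-N-AS, with a median of -0.02. PSMB6, the constitutive subunit that PSMB9 replaces, was lower, with a log2 difference of -1.53 ± 0.17 (adjusted p = 7.08e-05), and PSMB1, PSMA7 and PSMB4 had log2 differences of -0.88, -0.74 and 0.65.

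TAP1 lies next to PSMB8 and PSMB9 in the class II region of chromosome 6. The following window was chosen after the values of TAP1 were seen. Within 500 kb of its start, 22 genes were tested, of which 12 were higher in SK-N-AS and 0 in KELLY, with a median log2 difference of 1.01. Without the members and PSMB8 and PSMB9, 7 of 17 were higher, with a median of 0.57, beside 30.3% of all genes. Those 7 include PSMB8-AS1 and HLA-DMA, which passed the low-count filter only through SK-N-AS and so had to be higher there. HLA-DMA held 6 counts in the KELLY DMSO libraries together and 58 in those of SK-N-AS. The count is therefore no sign of an excess in this window. TAP1 itself and its neighbours PSMB8, PSMB9 and PSMB8-AS1, at -9.14, -9.68 and -9.74 kb, had 0 counts in the 6 KELLY libraries. TAP2, at -15.1 kb, held 10 to 26 counts there. BRD2, at 115 kb, had at least 3601 counts in each KELLY DMSO library, and 10 of the 22 genes had at least 100. The authors' counting is not stated to use strand, so reads of PSMB8-AS1 and PSMB8 cannot be told apart.

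**Figure D3:**
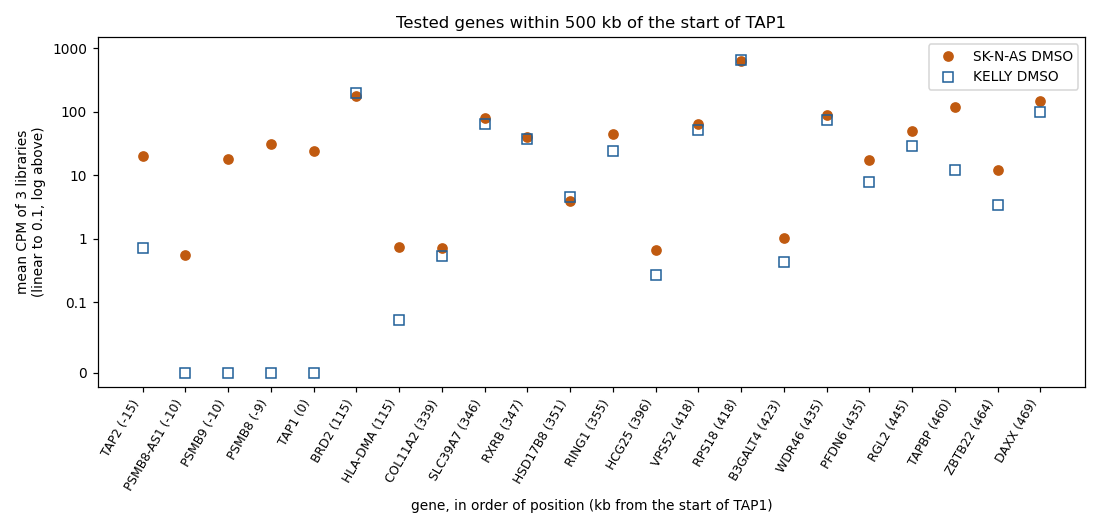
Mean CPM of the 3 DMSO libraries of each line (y axis, linear up to 0.1 and logarithmic above) for the 22 tested genes within 500 kb of the start of TAP1, in order of position, with the distance in kb in brackets. TAP1, PSMB8, PSMB9 and PSMB8-AS1 lie at 0 in KELLY, while the log2 differences of BRD2 (-0.18) and RPS18 (-0.08) did not pass the test.

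Factors that bind or silence class I promoters, and other repressors of class I, differed in either direction. Of 19 such genes, 8 were higher in SK-N-AS and 4 lower, with a median of 0.16. IRF2 and IRF1, interferon regulatory factors, were higher by 3.04 ± 0.25 and 2.68 ± 0.22, and NFKB2, an NF-κB subunit, by 2.38 ± 0.22 (adjusted p = 9.47e-06, 1.01e-05 and 1.88e-05). TMEM127, a membrane protein whose product lowers surface class I, was higher by 2.00 ± 0.15 (adjusted p = 5.63e-06). EED, SUZ12 and EZH2, core subunits of Polycomb repressive complex 2, were lower in SK-N-AS, with log2 differences of -1.20, -1.52 and -0.68 (adjusted p = 0.000667, 0.000709 and 0.00432). The promoter factor RFXAP was lower too, with the lowest value of the 19 genes, -1.67 ± 0.32 (adjusted p = 0.00187). Over all genes, 30.9% were lower.

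Interferon-stimulated genes were mostly higher in SK-N-AS. Of 30 tested, 27 were higher in SK-N-AS and 2 lower, with a median log2 difference of 4.79, or 4.20 with the 5 genes at 0 in KELLY set at their bound. Many of them, such as HERC5 and DTX3L, passed the filter only through SK-N-AS and so had to be higher there. Of the 14 with at least 10 counts in every library, 11 were higher and 2 lower, with a median of 1.76. LGALS3BP, a secreted glycoprotein, had 118 to 209 counts in KELLY DMSO and 20980 to 28564 in SK-N-AS, a log2 difference of 7.14 ± 0.26 (adjusted p = 1.53e-07). The ISG15 ligase HERC5 had 1 count in the KELLY DMSO libraries together and 1584 in SK-N-AS, and the ubiquitin ligase DTX3L had 9 and 7985. The helicase gene DDX60 differed by 5.96 ± 0.27 (adjusted p = 3.77e-07). Of 16 tested genes of the interferon pathway itself, 11 were higher in SK-N-AS and 0 lower, with a median of 0.94, and of the 14 under the stricter filter 9 were higher and 0 lower. SOCS3, a feedback inhibitor, was higher by 3.78 ± 0.27, the receptor chain IFNGR2 by 1.59 ± 0.13 and STAT2 by 1.52 ± 0.15. TMEM173, which encodes STING, had 0 counts in KELLY DMSO and was at least 28.1-fold higher in SK-N-AS. Over all genes, 30.3% were called higher, or 28.3% under the stricter filter.

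MHC class II genes were mostly unmeasured, with 3 of 13 tested. CD74, the invariant chain, was lower in SK-N-AS, with a log2 difference of -3.62 ± 0.44 (adjusted p = 0.000111), HLA-DMA was higher by 3.19 ± 0.51 (adjusted p = 0.000583), and CIITA differed by 0.03 (adjusted p = 0.930). Among other class I rows, MR1, which presents vitamin metabolites, was higher by 4.95 ± 0.37 (adjusted p = 5.20e-06) and the pseudogene HLA-L by 1.16 ± 0.36 (adjusted p = 0.0206). MR1 held 24 counts in the KELLY DMSO libraries together and 755 in those of SK-N-AS. Both MR1 and HLA-DMA passed the low-count filter only through SK-N-AS. They therefore had to be higher there, and their p-values are no support. Class I genes and pseudogenes share long stretches of sequence, and how the counting treated reads that fit several of them is not given in the sources used here, so HLA levels are uncertain to that extent. HLA-L held 11 to 45 counts in a library, HLA-H at most 3 and HLA-G 0.

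Cell state markers moved with the line. The 9 adrenergic neuroblastoma markers summed to 4266 to 7155 CPM in KELLY DMSO and to 954 to 1050 CPM in SK-N-AS DMSO, with none at 0. Of these, CHGA, DBH, TH and CHGB differed by -7.54, -7.58, -7.23 and -3.31. The 9 mesenchymal markers summed to 193 to 203 and 2558 to 2851 CPM, and the 6 fibroblast genes to 75.1 to 120 and 4353 to 5023 CPM, with 1 of the 6 at 0 in KELLY. VIM and YAP1 differed by 4.96 and 5.32, and COL1A1 by 7.58. Of 15 blood cell markers, 8 were at 0 in SK-N-AS DMSO and 9 in KELLY DMSO, with sums of 521 to 648 and 185 to 203 CPM. The SK-N-AS sum was mostly PTPRC, at 487 to 620 CPM against 0 in KELLY, whereas the T cell gene CD3E, the B cell gene MS4A1 and the myeloid genes ITGAM and LYZ were at 0 in the 12 libraries. The part of these marker differences in the class I difference was not tested.

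Under Erastin, class I presentation genes did not pass the test in either line. In KELLY 5 members were tested and 0 were called at an adjusted p of 0.05 by edgeR, by DESeq2 (which gave values for 8 members) or by limma-voom. Without the GC correction, 0 had an unadjusted edgeR p under 0.05. Over all genes 0.00615% were called in KELLY, 2.64% had such an unadjusted p, and 0.178% were called with the GC trend removed, where 0 members were. In SK-N-AS 8 members were tested, and edgeR, DESeq2 and limma-voom again called 0, with 0 at an unadjusted edgeR p under 0.05 without the GC correction. Of all genes there, 0.659% were called, 8.77% had such an unadjusted p, and 6.84% were called with the GC trend removed, where 0 members were. With the GC trend removed, NLRC5 had an unadjusted edgeR p under 0.05 in either line (values below). The share of all genes at that level in those fits is not given here. The looser threshold of the study's methods (p up to 0.05 and a fold of at least 1.5) was applied here to the edgeR p-values. It called 0 of the tested members in either line, while all genes gave 2.03% (KELLY) and 2.67% (SK-N-AS). The study used DESeq2 and kept protein-coding genes, so its own calls can differ. HLA-B, HLA-E, HLA-F and TAP1 did not enter the KELLY fit.

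In KELLY, NLRC5 had 2.33, 3.13 and 2.55 CPM with DMSO and 2.17, 1.9 and 1.27 CPM with Erastin. The groups did not overlap, and the log2 difference was -0.58 (95% interval -1.25 to 0.085, adjusted p = 0.770). Removing the GC trend gave -0.85 ± 0.27 (unadjusted p = 0.0112, adjusted p = 0.537). B2M had 139, 117 and 118 CPM with DMSO and 94, 112 and 112 CPM with Erastin, also without overlap, and a log2 difference of -0.23 (-0.59 to 0.13, adjusted p = 0.770). With the GC trend removed, the B2M difference was -0.0029 ± 0.11. Groups that did not overlap with Erastin lower made up 4.34% of the KELLY table.

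HLA-C had 11.5, 4.77 and 6.16 CPM in the KELLY Erastin libraries, spread around the DMSO values of 3.42, 8.17 and 4.55 CPM. Its log2 difference was 0.48 (-0.50 to 1.46, adjusted p = 0.770), or 0.15 ± 0.21 with the GC trend removed. Without KELLY Erastin replicate 1 it was 0.02, and without KELLY DMSO replicate 2 it was 0.90. TAPBP had 18.4, 13.1 and 15.2 CPM with Erastin, a log2 difference of 0.39 (-0.18 to 0.96), and 0.17 ± 0.11 after correction. TAP2 had 17, 10 and 10 counts with Erastin, a log2 difference of -0.54 (-1.62 to 0.54). Without KELLY Erastin replicate 1 the TAP2 difference was -0.89, and without KELLY DMSO replicate 1 it was -0.17. The intervals of HLA-C, TAP2 and NLRC5 include a 2-fold change. In simulated KELLY counts, 10.6% of 2-fold and 73.4% of 4-fold changes were recovered.

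The members too low to test in KELLY stayed low with Erastin. HLA-B counts were 14, 8 and 9 under Erastin and 1, 10 and 2 under DMSO, and the groups overlapped. TAP1 remained at 0 in the 3 Erastin libraries and HLA-F was at 0 as well. The summed heavy chain level was 7.97 ± 3.77 CPM (SD, n = 3) with Erastin, and its libraries overlapped those with DMSO. Between the Erastin-treated lines, the ratio of summed counts in favour of SK-N-AS was 31.9 for HLA-B (counting interval 22.3 to 47.1) and 289 for HLA-E (140 to 720), and TAP1 was at least 216-fold higher there.

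In SK-N-AS, the spread was narrower and the log2 differences of the 8 members ran from -0.25 to 0.11. NLRC5 had 17.1, 18.4 and 16.2 CPM with Erastin against 23.5, 20.2 and 18.3 CPM with DMSO. The groups overlapped, and the difference was -0.25 (-0.51 to 0.0088, adjusted p = 0.593). Removing the GC trend gave -0.23 ± 0.07 (unadjusted p = 0.00677, adjusted p = 0.0761), the smallest adjusted p of any member in SK-N-AS in that fit.

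TAP2 had 19, 18.9 and 19.6 CPM with Erastin and 19.7, 21.4 and 19.9 CPM with DMSO. It was the member whose SK-N-AS groups did not overlap, with a difference of -0.07 (-0.29 to 0.14) that did not pass. Groups without overlap and with Erastin lower made up 7.81% of the SK-N-AS table. TAP1 had 23.8, 27.5 and 24.1 CPM with Erastin, a difference of 0.08 (-0.19 to 0.35).

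The heavy chains gave like values in SK-N-AS. HLA-E had 25.6, 28.4 and 23.8 CPM with Erastin, a difference of 0.11 (-0.15 to 0.38). HLA-B had 11.8, 12.9 and 13.3 CPM, a difference of 0.03 (-0.28 to 0.35), and HLA-C had 23.3, 29.8 and 23.9 CPM, a difference of -0.0098 (-0.29 to 0.27). HLA-F had 0, 1 and 6 counts. B2M had 475, 475 and 499 CPM (-0.02, interval -0.22 to 0.18), and TAPBP 109, 122 and 118 CPM (-0.0044, interval -0.19 to 0.19).

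**Figure D4:**
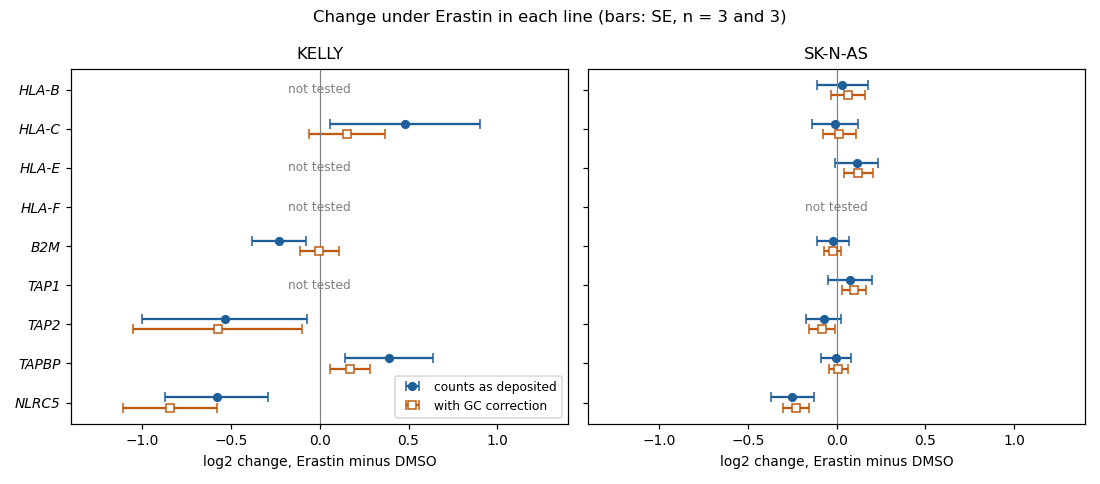
log2 difference between Erastin and DMSO (x axis) for each member in KELLY and SK-N-AS, with SE bars, for the counts as deposited (filled) and with each library's GC trend removed (open). NLRC5 lies lowest in either line, at -0.58 in KELLY and -0.25 in SK-N-AS, and B2M and TAPBP in KELLY move towards 0 with the correction.

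The response of the lines was compared by an interaction term, which 0 of the 8 tested members passed, as against 0.00548% of all genes (edgeR). DESeq2 and limma-voom called 0 members too. Without the GC correction, 0 had an unadjusted edgeR p under 0.05, which 4.25% of all genes had. The term shares its samples with the comparisons above. TAP1 has no meaningful term, because KELLY was at 0. For NLRC5 the difference of the changes, SK-N-AS minus KELLY, was 0.33 ± 0.28 (adjusted p = 0.811). With the GC trend removed it was 0.62 ± 0.21 (unadjusted p = 0.0109, adjusted p = 0.466), and 0.121% of all genes were called in that fit. For HLA-C the difference as deposited was -0.49 ± 0.46 and for B2M 0.20 ± 0.17, each with an adjusted p of 0.811.

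Some member values moved with the GC trend of their library. HLA-C transcripts are 60.1% GC, TAPBP 57.1% and B2M 39.1%. In KELLY the highest HLA-C level belonged to Erastin replicate 1, the library with the strongest positive trend (rho 0.83), and the lowest to DMSO replicate 1, the most negative (-0.77). The SD of log2 HLA-C within KELLY groups was 0.64 as deposited and 0.29 after correction, and that of TAPBP went from 0.34 to 0.08. For B2M in KELLY it went from 0.15 to 0.17.

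**Figure D5:**
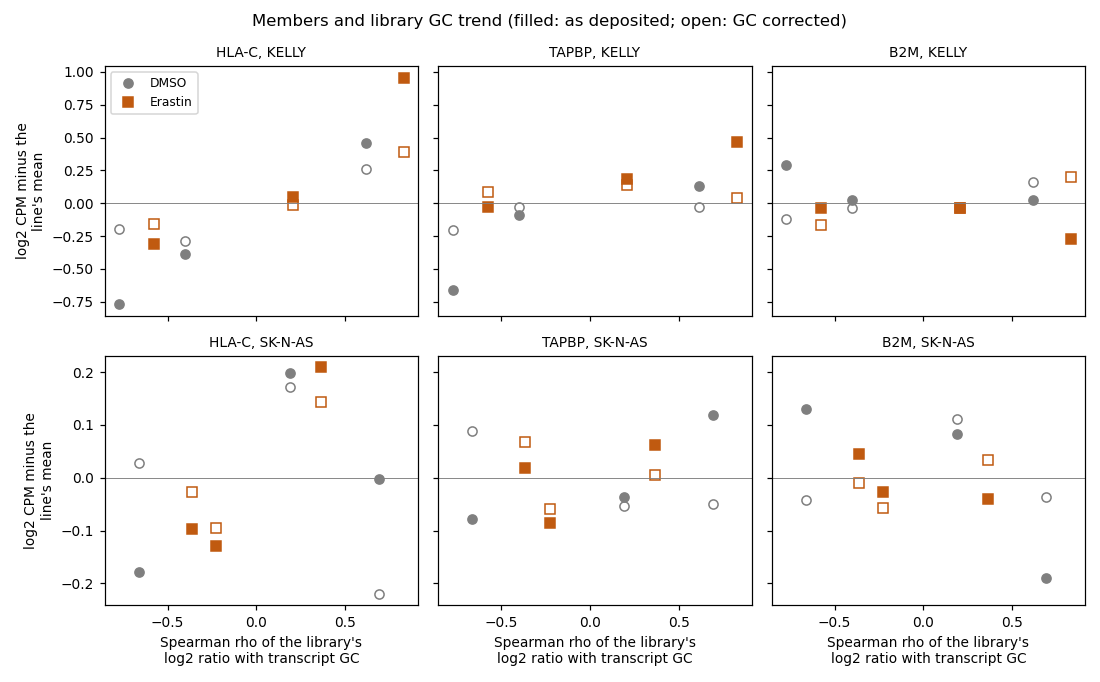
log2 CPM of HLA-C, TAPBP and B2M in each library relative to the mean of its line (y axis), against the Spearman rho of that library's log2 ratio with transcript GC (x axis), for KELLY above and SK-N-AS below. Filled points are values as deposited and open points have the GC trend removed. In KELLY, HLA-C and TAPBP lie above 0 in the 3 libraries of positive rho and below it in the other 3, while B2M is lowest in Erastin replicate 1 and highest in DMSO replicate 1.

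Genes around the pathway gave 0 calls under Erastin in either line among the antigen processing partners, the constitutive proteasome, the promoter factors, the interferon pathway and the interferon-stimulated genes. In KELLY, NFKB2 differed by 0.59 ± 0.25 (unadjusted p = 0.0496), the interferon regulatory factor IRF7 by 0.65 ± 0.32 (unadjusted p = 0.0782) and CALR, a chaperone of the loading complex, by 0.25 ± 0.16 (unadjusted p = 0.145), each with an adjusted p of 0.770. Removing the GC trend gave 0.25, 0.25 and 0.11. The genes next by p in their lists, SUZ12, OAS3 and SPPL2A, differed by -0.53, -0.31 and -0.39 as deposited. After correction these were -0.28, -0.47 and -0.15. In SK-N-AS, SOCS1 differed by -0.57 ± 0.24 and STAT2 by 0.21 ± 0.09, with adjusted p = 0.507 and 0.522. With the GC trend removed, TMEM127 and STAT2 passed in SK-N-AS, at 0.18 and 0.21 (adjusted p = 0.0237 and 0.0257).

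The 5 members measured in both lines were averaged after each was centred within its line, and other genes were ranked by Pearson's r with that mean over the 12 libraries. Among 8994 genes, PSMB6 was most like it (r = 0.95), followed by FANCG, TUBA1B, AC093323.1 and QPRT (0.95, 0.94, 0.94 and 0.92). With the GC trend removed, FBXO5, PSMB6, ESRRA, SNRPD1 and MIS18A led (0.92, 0.91, 0.91, 0.91 and 0.91). The 5 members did not move as one: r between 2 of them ran from -0.86 (B2M with TAPBP) to 0.87 (HLA-C with TAPBP) as deposited, with 5 of 10 pairs below 0, and from -0.79 (TAP2 with TAPBP) to 0.88 (HLA-C with B2M) after correction. The mean therefore stands for no pattern common to the members, and the values share libraries and GC trend.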

How the data were processed

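RNA was measured in KELLY and SK-N-AS neuroblastoma cells, 3 libraries in each of 4 groups. Per the study's methods, the authors aligned paired reads to GRCh38, annotated genes with GENCODE and counted them with HTSeq, and the labels name Trimmomatic and DESeq2. The deposited values are raw counts per gene without normalization, in 1 table per line. The gene name column was the only other column.

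Groups were taken from the sample labels. Each comparison was fitted over all its genes with edgeR 4.0.16 (quasi-likelihood test, TMM scaling, filterByExpr defaults, Benjamini-Hochberg adjusted p under 0.05) in R 4.3.3. DESeq2 1.42.0 and limma 3.58.1 (voom) were alternatives. To remove GC trends, a loess curve of log2 ratio against transcript GC (span 0.5, degree 2, prior count 2; GENCODE release 44) entered the fit as an offset per library, and genes without a matched transcript got no offset for GC (87.5% of tested genes matched in KELLY and 88.3% in SK-N-AS). CPM used TMM factors over the 12 libraries, and a level per kb divides by the MANE Select transcript, or the longest one. Intervals are at 95%. The fits were tested on simulated data.

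Named genes were all members and, in each fixed list and comparison, genes drawn from the 4 called ones with the smallest p. Where none was called, they were drawn from the 2 with the smallest p. Not all of these are named. Between the lines, FOSL1 and LUM had the smallest p of the mesenchymal and fibroblast lists and are left out above. EED, SUZ12, EZH2, RFXAP, CIITA, CD3E, MS4A1, ITGAM, LYZ, HLA-H and HLA-G, and the neighbours of TAP1, were chosen after their values were seen. The members and lists were chosen with earlier results of these data known. Depth was 24169796 to 29835670 counts per library, and counting intervals and floors cover counting error only.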

Additional observations from a re-analysis of the deposited data

How the results depend on the processing

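The excess of members in SK-N-AS over KELLY kept its direction and its call in 133 of 133 alternative values, and 8 members were called in each setting but a filter of at least 10 counts in every library, which tested and called 5. Leaving out a library gave 8 each time. Under Erastin, 0 members were called in either line in every setting, and 0 for the interaction. The values that changed sign were all in SK-N-AS or in the interaction and close to 0. In SK-N-AS, TAPBP was 0.0028 without a filter, 0.0019 with at least 10 counts, 0.0091 with the GC correction and 0.0094 with the replicate block and GC correction, and HLA-C was 0.015 and 0.013 in the latter pair. Leaving out a library gave -0.044 to 0.055 for TAPBP, -0.12 to 0.098 for HLA-C, -0.11 to 0.041 for B2M, -0.020 to 0.20 for TAP1 and -0.11 to 0.15 for HLA-B. In KELLY, HLA-C ran from 0.024 to 0.90 and TAP2 from -0.89 to -0.17. The B2M interaction was -0.0052 with the GC correction and -0.0017 with the block as well. Replicate numbers were not shown to pair the samples. Same-numbered DMSO and Erastin libraries deviated with correlations of -0.58, -0.59 and -0.07 in KELLY and -0.03, 0.10 and 0.18 in SK-N-AS. Not every library correlated best with its own number, though SK-N-AS DMSO replicates 2 and 3 did. The deviations include each library's GC trend, so they cannot tell whether the numbers pair the samples. With the replicate block alone, NLRC5 was -0.60 in KELLY (adjusted p = 0.961) and -0.25 in SK-N-AS (adjusted p = 0.438), and 8, 0, 0 and 0 members were called between the lines, in KELLY, in SK-N-AS and for the interaction. With the block and the GC correction, NLRC5 was -0.87 in KELLY (adjusted p = 0.900) and -0.23 in SK-N-AS (adjusted p = 0.0574). Without SK-N-AS DMSO replicate 3, NLRC5 was -0.33 in that line (adjusted p = 0.0787). Over all genes, calls in KELLY were 1 in the fit reported, 0 with the block, 29 with the GC correction, 25 by DESeq2, 19 without a filter and 17 with all 12 samples. In SK-N-AS they were 106, 308, 1101, 199, 265 and 46, with 53 to 855 when a library was left out, the highest without DMSO replicate 3. The block with the GC correction gave 5 and 1869. For the interaction they were 1 in the fit reported, 22 with the GC correction, 12 by DESeq2 and 8 without a filter. The cause of these shifts was not tested. Depth limits HLA-B, HLA-E, HLA-F and TAP1 in KELLY, where no library held more than 14 counts.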
